A study of Mus musculus with 6 samples.

Results

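The 10 genes described here encode the contractile apparatus of smooth muscle, and they were read in sorted testis cells of newborn mice. They are Acta2, Tagln, Myl9, Cnn1, Myh11, Actg2, Des, Tpm1, Tpm2 and Cald1, chosen by name, and were found by their Ensembl identifiers as 10 of the 51912 genes in the count table. The study compared 3 wild type with 3 Bud31-vKO libraries, and Bud31-vKO mice had lost the spliceosome gene Bud31 through Cre recombinase and loxP. All mice were C57BL/6J at postnatal day 4, and no treatment is given beyond digestion of the testis and flow sorting for THY1 and against c-KIT, which enriches spermatogonial stem cells. RNA was amplified by Smart-Seq2, a full-length cDNA method for little input. The labels name neither the promoter that drives Cre nor the exons removed, and they do not say how many cells or animals a library holds. The columns of the table carry C or T with a number, read here as wild type and Bud31-vKO, which the labels do not spell out. Since nothing states that libraries came from separate animals, the p-values speak to the spread among these libraries alone, and it may be technical.

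Smooth muscle contracts when myosin filaments pull on thin filaments of actin and tropomyosin, after calcium and calmodulin switch on the kinase that phosphorylates the myosin regulatory light chain. Calponin and caldesmon bind thin filaments and restrain the myosin, and desmin links the contractile units to one another. In the testis the best known contractile cells are the peritubular myoid cells, which wrap the seminiferous tubules, and the smooth muscle cells and pericytes of vessels. Many contractile genes are switched on by the transcription factor SRF with cofactors of the myocardin family, and SRF binds a short element called the CArG box. Tpm1, Tpm2, Cald1 and Myl9 are also used by cells that are not muscle, and counts per gene do not separate their isoforms.

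RefSeq windows on GRCm38.p6, 250 bases before to 50 after a gene's start, were matched by symbol for 7 of the 10 members, Tagln, Myh11 and Actg2 being the others, and gave 8 windows because Cald1 has 2 starts. Each was searched on both strands for the CArG box, which is CC, then 6 letters that are A or T, then GG, and for a CArG-like form in which 1 of the 6 letters is G or C. Of 32851 windows in the table, 1.63% held a CArG box and 9.98% held either form. Acta2 had 2 CArG-like matches, 84 and 34 bases before its start. Myl9 had a CArG box 161 bases and a CArG-like match 99 bases before its start. The windows of Cnn1, Des, Tpm1, Tpm2 and Cald1 held neither form, so 2 of the 7 members held a match. The windows of Acta2 and Myl9 are shown because these genes varied together over the libraries, and those of Cald1 because it alone separated the genotypes in all 6 libraries. Capitals mark the matches.
Acta2, chr19:34255324-34255623, minus strand: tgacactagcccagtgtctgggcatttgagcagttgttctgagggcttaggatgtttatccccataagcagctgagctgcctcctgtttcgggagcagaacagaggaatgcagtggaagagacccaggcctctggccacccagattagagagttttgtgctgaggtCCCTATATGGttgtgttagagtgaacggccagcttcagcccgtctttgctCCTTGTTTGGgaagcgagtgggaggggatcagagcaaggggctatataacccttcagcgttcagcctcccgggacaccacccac
Myl9, chr2:156775214-156775513, plus strand: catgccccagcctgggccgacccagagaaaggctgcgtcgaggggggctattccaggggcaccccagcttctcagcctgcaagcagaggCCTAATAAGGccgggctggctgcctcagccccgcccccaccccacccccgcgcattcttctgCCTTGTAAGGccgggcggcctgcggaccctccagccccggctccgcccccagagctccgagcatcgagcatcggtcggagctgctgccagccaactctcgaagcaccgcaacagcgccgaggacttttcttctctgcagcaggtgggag
Cald1 outer start, chr6:34598254-34598553, plus strand: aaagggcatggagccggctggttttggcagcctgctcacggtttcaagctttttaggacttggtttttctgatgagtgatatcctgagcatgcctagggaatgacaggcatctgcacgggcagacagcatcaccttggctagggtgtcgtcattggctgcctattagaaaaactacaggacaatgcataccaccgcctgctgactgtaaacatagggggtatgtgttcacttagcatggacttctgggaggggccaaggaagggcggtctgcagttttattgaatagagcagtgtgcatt
Cald1 inner start, chr6:34709194-34709493, plus strand: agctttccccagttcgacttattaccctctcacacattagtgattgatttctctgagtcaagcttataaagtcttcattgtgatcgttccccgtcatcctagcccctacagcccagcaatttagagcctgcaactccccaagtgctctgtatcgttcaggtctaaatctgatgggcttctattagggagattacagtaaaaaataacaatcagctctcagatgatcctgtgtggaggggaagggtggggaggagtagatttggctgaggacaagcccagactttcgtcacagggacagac
A match describes letters only, and a window with no match says nothing about the factor.

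The libraries held 13240704 to 18744466 reads. Wild type library 3 and Bud31-vKO library 2 stood apart, with reads in 13762 and 12464 genes against 18171 to 22300 in the other 4. A floor of 3 reads was worth 0.166 to 0.222 CPM, the read count relative to the TMM-scaled library total, and that floor covers counting error only. Bud31 itself measured 138, 96.8 and 158 CPM in libraries 1, 2 and 3 of wild type mice and 47.2, 67.6 and 80.4 CPM in those of Bud31-vKO mice, with no overlap. The 14 germ cell markers, such as Ddx4 and Dazl, summed to 3604 to 3976 CPM in wild type and 1725 to 2426 CPM in Bud31-vKO. The 9 markers of interstitial stroma, among them the collagens Col1a1 and Col3a1, summed to 10540.5 to 21844 and 8593 to 14847 CPM, and all 9 had reads in every library. Transcripts of stroma were thus present beside those of the sorted stem cells.

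The contractile genes were read at very unequal levels. Per length of exon, Myl9, Acta2, Tpm1 and Tpm2 stood above the rest, while Myh11, Cnn1, Actg2 and Tagln were low. The level per length is a gene's reads divided by its exon length and scaled to the same total in every library. It averaged 451 ± 103 for Myl9, 327 ± 277 for Acta2, 174 ± 59.4 for Tpm1 and 142 ± 59.6 for Tpm2 (SD over the 6 libraries). Cald1 followed with 40.4 ± 12.6 and Des with 24.7 ± 9.83. Myh11 averaged 4.81 ± 5.39, Cnn1 3.27 ± 2.13, Actg2 1.63 ± 2.03 and Tagln 0.967 ± 1.06. Tpm2 was above Cald1, and Des above Myh11, in 6 of 6 libraries. The other 7 pairs of neighbours changed places in at least 1 library. Myl9 was above Acta2 in 5 of 6 libraries, Acta2 above Tpm1 in 4, Myh11 above Cnn1 in 3 and Actg2 above Tagln in 2. The group means of Acta2 were 459.5 in wild type and 195 in Bud31-vKO, against 147 and 202 for Tpm1. Library by library, Acta2 was below Tpm1 in 1 library of each genotype, wild type library 3 and Bud31-vKO library 1.

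**Figure D1:**
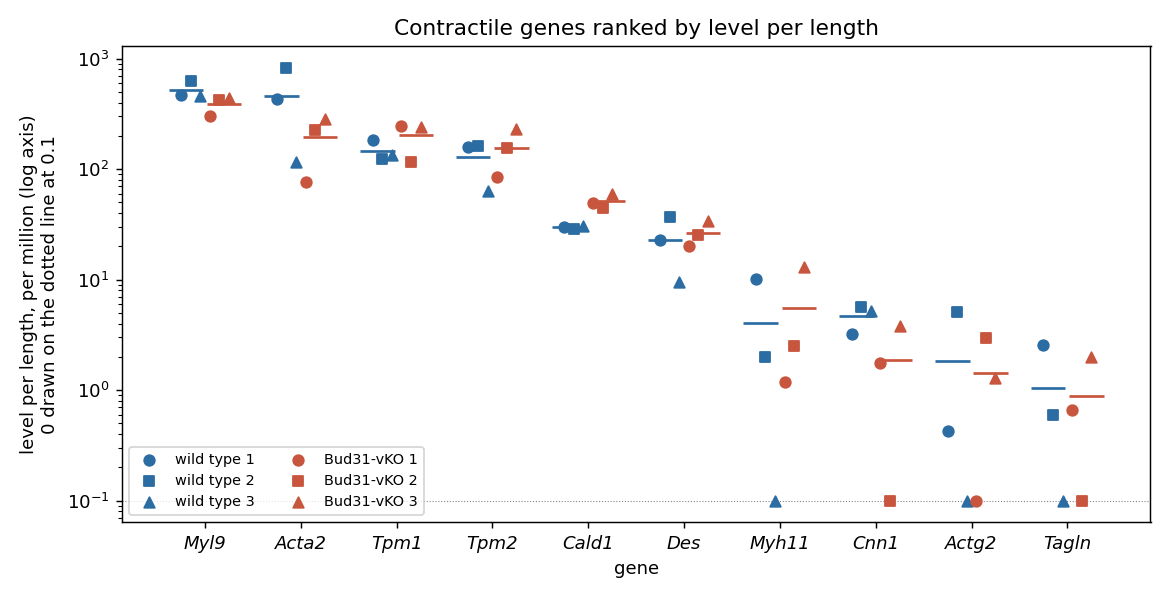
Level per length of each contractile gene in the 6 libraries, on a log axis and ordered by the mean. Points are libraries, short lines are group means (n = 3), and values of 0 lie on the dotted line. Over all 6 libraries the means run from 451 for Myl9 to 0.967 for Tagln, and most neighbours change places in at least 1 library.

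Among the actins, Acta2 was abundant and Actg2 nearly absent. Acta2 encodes smooth muscle alpha-actin and lies on chromosome 19 (minus strand, 34241090 to 34255590) of GRCm38. It measured 317, 596 and 73.1 CPM in libraries 1, 2 and 3 of wild type mice and 55.1, 168 and 207 CPM in those of Bud31-vKO mice. Wild type library 2 was highest and Bud31-vKO library 1 lowest, 10.8-fold apart, and the groups overlapped through wild type library 3. The means were 329 ± 262 CPM for wild type against 144 ± 79.1 CPM for Bud31-vKO (SD, n = 3 each). For the log2 fold change edgeR gave -1.19, an unadjusted p of 0.154 and an adjusted p of 0.9997 in its quasi-likelihood test with Benjamini-Hochberg adjustment. A standard error (SE) of 0.76 was derived from the fold change and the F of that test, as was every SE given here. The fold change was -0.45 when wild type library 2 was left out and -0.78 when Bud31-vKO library 1 was. It was -1.65 when wild type library 3 was left out (unadjusted p of 0.0283 by edgeR) and -1.79 in the 4 libraries richest in detected genes (unadjusted p of 0.0416). Over 16 alternatives the unadjusted p was under 0.05 in 3 and the adjusted p was between 0.753 and 1.

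The summed level of the vascular mural markers was highest in the library with the highest Acta2. The 10 mural genes summed to 929 CPM in wild type library 2, 289 and 169 CPM in wild type libraries 1 and 3, and 351 to 458 CPM in Bud31-vKO. Rgs5, a pericyte gene, measured 8.82, 254 and 0 CPM in wild type against 81.4, 65.9 and 95.4 CPM in Bud31-vKO, in library order. Not every mural gene followed the sum. Notch3 was highest in wild type library 3, at 36.5 CPM against 25.1 CPM in wild type library 2. Cspg4 was highest in Bud31-vKO library 2, at 55.9 CPM against 22.5 CPM in wild type library 2. Only 3 of the 10 mural genes had reads in every library, and 5 were at 0 in wild type library 3. The part of mural cells in the Acta2 level was not tested, and in RNA of mixed cells fewer cells of a type and less RNA per cell cannot be told apart.

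Actg2, the gamma-actin of visceral smooth muscle, had 3, 47 and 0 reads in the wild type libraries, in order, against 0, 22 and 9 in the Bud31-vKO ones. Each group held a library with 0 reads, and the gene did not pass the filter on low counts. Of the 50-base words in Acta2 transcripts, 0.326% also occur in another gene's transcripts, and of those in Actg2 0%. The striated actin genes Acta1 and Actc1 did not exceed 0.856 and 0.219 CPM.

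Myosin was represented by its light chain far more than by the smooth muscle heavy chain. Myl9, a regulatory light chain, lies on chromosome 2 (plus strand, 156775420 to 156781658). It measured 179, 238 and 153 CPM in libraries 1, 2 and 3 of wild type mice and 116, 165 and 171 CPM in those of Bud31-vKO mice. The groups overlapped, and as for Acta2 the highest value was in wild type library 2 and the lowest in Bud31-vKO library 1. The means were 189.9 ± 43.2 CPM for wild type against 151 ± 29.8 CPM for Bud31-vKO (SD, n = 3 each), and the log2 fold change was -0.33 with an SE of 0.33 and an unadjusted p of 0.337 by edgeR over all genes. It was -0.15 with wild type library 2 left out, -0.15 with Bud31-vKO library 1 left out, and -0.53 in the 4 libraries richest in detected genes.

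Myh11 encodes the heavy chain of smooth muscle myosin and lies on chromosome 16 (minus strand, 14194535 to 14291372). Its levels were 25.6, 4.92 and 0 CPM in libraries 1, 2 and 3 of wild type mice and 2.997, 6.49 and 33.1 CPM in those of Bud31-vKO mice. Wild type library 1 and Bud31-vKO library 3 were high, and the other 4 libraries were at 6.49 CPM or below. Its log2 fold change of 0.48 had an SE of 2.001. It was -1.11 without Bud31-vKO library 3, -0.09 without wild type library 3 and 2.52 without wild type library 1. Per length, Myh9 and Myh10, heavy chains of cells that are not muscle, averaged 18.3 and 49.4 over the 6 libraries.

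Of the genes that regulate the thin filament, caldesmon separated the genotypes. Cald1 lies on chromosome 6 (plus strand, 34598500 to 34775473). It measured 120.5, 112 and 107 CPM in libraries 1, 2 and 3 of wild type mice and 197, 180.3 and 239 CPM in those of Bud31-vKO mice. Each Bud31-vKO library was above every wild type library. The means were 113 ± 6.91 CPM for wild type against 205 ± 30.2 CPM for Bud31-vKO (SD, n = 3 each), and the log2 fold change was 0.86 or 1.82-fold, with an SE of 0.29. In edgeR's test p was 0.0196 unadjusted and 0.9997 adjusted, so Cald1 did not pass over the 15240 genes tested. DESeq2 gave an unadjusted p of 0.00358 and an adjusted p of 0.340. Over 16 alternatives the log2 fold change lay between 0.73 and 0.95 and the adjusted p between 0.340 and 1. Counts per gene do not tell which of the 2 starts shown above was used.

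The tropomyosins Tpm1 and Tpm2 lie along the actin filament and control access of myosin. Tpm1 measured 395, 259.5 and 249.8 CPM in libraries 1, 2 and 3 of wild type mice and 530.5, 257 and 525 CPM in those of Bud31-vKO mice. Bud31-vKO libraries 1 and 3 lay above all wild type libraries, and Bud31-vKO library 2 lay among them. Its log2 fold change was 0.54 (standard error 0.37, unadjusted p of 0.189 by edgeR over all genes), and 0.82 with Bud31-vKO library 2 left out (unadjusted p of 0.0411). Tpm2 measured 153, 154 and 52.8 CPM in libraries 1, 2 and 3 of wild type mice and 81.6, 152 and 222 CPM in those of Bud31-vKO mice, with overlap. Its log2 fold change of 0.34 had an SE of 0.54, and it was 0.0067 when wild type library 3 was left out and -0.037 when Bud31-vKO library 3 was. Tpm3 and Tpm4, tropomyosin genes also used by cells that are not muscle, averaged 531 and 378 per length.

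Cnn1, which encodes basic calponin, was low. It had 40, 92 and 70 reads in the wild type libraries, in order, against 22, 0 and 47 in the Bud31-vKO ones. Scaled levels were 2.92, 5.08 and 4.08 CPM against 1.61, 0 and 3.48 CPM, and the groups overlapped only between wild type library 1 and Bud31-vKO library 3. A log2 fold change of -1.24 was estimated with an SE of 1.97. It moved to -0.65 with Bud31-vKO library 2 left out, to -2.31 with Bud31-vKO library 3 left out, and to -2.77 with limma-voom. Its relatives Cnn2 and Cnn3 averaged 135 and 99.4 per length.

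Tagln, which encodes the actin-binding protein transgelin, gave almost no signal, with 23, 7 and 0 reads in the wild type libraries, in order, against 6, 0 and 18 in the Bud31-vKO ones. The groups overlapped, and the gene did not pass the filter on low counts. It lies on chromosome 9 (minus strand, 45929619 to 45936058), and 67.9% of its exon bases lie opposite exons of Gm48529 or Pcsk7. How reads were counted, with strand or without, is not given in the sources used, so reads there may have been assigned to either gene or to none, and the effect was not tested. Gm48529 had 27, 15 and 0 reads in the wild type libraries, in order, against 4, 0 and 0 in the Bud31-vKO ones. Tagln2, a relative used by many cell types, averaged 623 per length.

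Des encodes desmin, the intermediate filament protein of muscle. It measured 28.5, 45.02 and 10.4 CPM in libraries 1, 2 and 3 of wild type mice and 24.9, 32.3 and 42.7 CPM in those of Bud31-vKO mice. All Bud31-vKO values lay within the wild type range. The log2 fold change was 0.25 with an SE of 0.78, and it was -0.12 without wild type library 3. Of its exon bases, 5.86% lie opposite the predicted gene Gm15179.

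**Figure D2:**
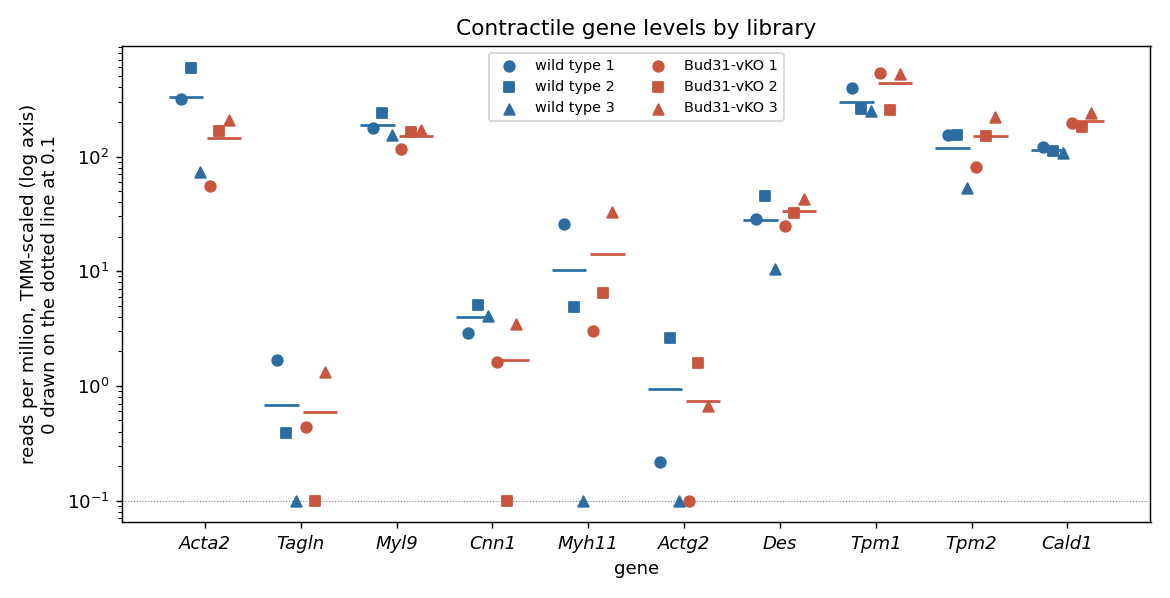
Level of each contractile gene in the 6 libraries, in TMM-scaled CPM on a log axis. Points are libraries, short lines are group means (n = 3), and values of 0 lie on the dotted line. For Cald1 the Bud31-vKO points, 180.3 CPM or more, lie above the wild type points, 120.5 CPM or less, and for the other genes the groups overlap.

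Over the list, the members had no common direction. The 8 members other than Tagln and Actg2 passed the filter on low counts. By edgeR 0 of the 8 were called at an adjusted p under 0.05, where 0% of all 15240 genes tested were called, and the count at an unadjusted p under 0.05 was 1 of 8, Cald1, against 2.91% of all genes. DESeq2 called 0 of 8, against 0.314% of genes with an adjusted p. The log2 fold change was below 0 for 3 of 8, Acta2, Myl9 and Cnn1, against 48.9% of all genes. The median was 0.30 over the 8 members and 0.022 over all genes tested. The members' median was -0.28 with wild type library 3 left out and -0.25 with Bud31-vKO library 3 left out. The filter on low counts was run again for both, so these medians are not over the same 8 members. Groups did not overlap for Cald1 alone, higher in Bud31-vKO, where 4.76% of all genes were so separated. In the lower direction it was 0 members, against 6.39% of all genes.

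The summed level of the 10 members overlapped as well. It was 1223, 1418 and 650.2 CPM in the wild type libraries, in order, against 1010.4, 963 and 1445 CPM in the Bud31-vKO ones. The means were 1097 ± 399 and 1139.6 ± 266 CPM (SD, n = 3 each). Wild type library 3, with few genes detected, was lowest for the sum and for Des, Tpm1, Tpm2 and Cald1, and had 0 reads of Tagln, Myh11 and Actg2. In the 4 libraries richest in detected genes, Acta2 and Myl9 were lower and Tpm1 and Cald1 higher in Bud31-vKO without overlap. That is 4 of the 10 members, counted whether or not they passed the filter there, against 39.4% of the genes that did pass it.

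**Figure D3:**
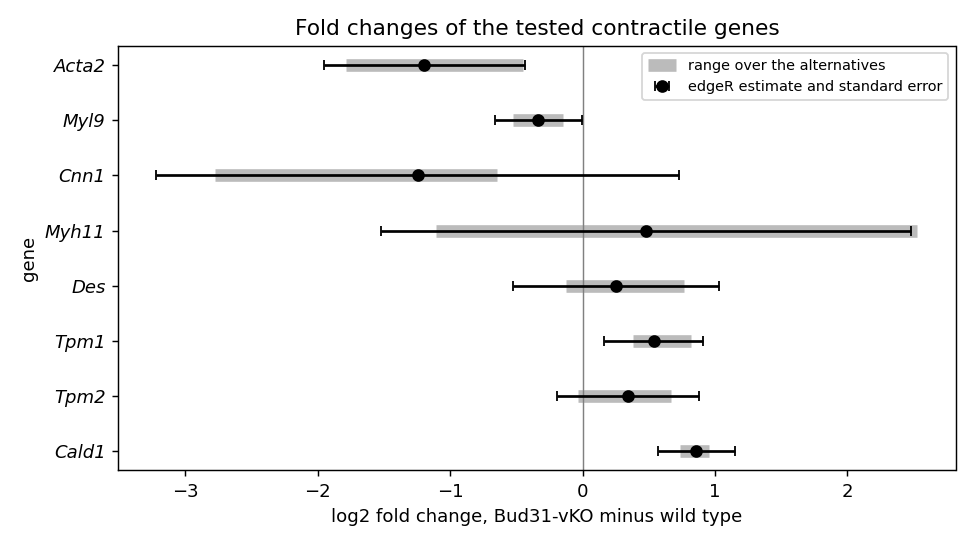
Log2 fold change of the 8 tested contractile genes, Bud31-vKO minus wild type, as points with standard errors derived from the F test. Grey bars span the 16 alternative settings. Cald1 lies between 0.73 and 0.95 over the alternatives, and the ranges of Myh11, Des and Tpm2 cross 0.

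The make-up of the contractile transcripts differed between libraries. Per length, Acta2 held 33.2%, 45.7% and 14.2% of the contractile total in the wild type libraries, in order, against 9.68%, 22.8% and 21.6% in the Bud31-vKO ones, with overlap. Cald1 held 2.30%, 1.57% and 3.77% against 6.31%, 4.46% and 4.54%, and each Bud31-vKO library was above every wild type library. Ratios of reads within a library do not depend on scaling between libraries. Reads of Myl9 per read of Cald1 were 1.48, 2.12 and 1.44 in the wild type libraries, in order, against 0.59, 0.92 and 0.71 in the Bud31-vKO ones, with no overlap. Reads of Acta2 per read of Cald1 were 2.63, 5.31 and 0.68 against 0.28, 0.93 and 0.87, which overlapped through wild type library 3. These ratios were chosen after the levels were seen and were not tested.

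Across the 6 libraries Acta2 and Myl9 followed each other most closely of the 28 pairs of tested members. Pearson's r of their log2 CPM was 0.94 (exact permutation p = 0.00139, adjusted over the 28 pairs 0.0389), and Spearman's rho was 1 (exact permutation p = 0.00278, adjusted 0.0778). Both unadjusted p are the smallest that 6 libraries allow. A single pair among 28 could thus pass an adjusted 0.05 for r but not for rho. Without wild type library 2 and Bud31-vKO library 1, the farthest from the median of Acta2, r was 0.99. Tpm2 went with Myh11, with r of 0.92 (exact permutation p = 0.00694, adjusted 0.0972) and rho of 0.83 (exact permutation p = 0.0583, adjusted 0.360). Without wild type library 3 and Bud31-vKO library 3 that r was 0.61. Tpm2 and Des had r of 0.91 (exact permutation p = 0.0111, adjusted 0.104) and rho of 0.89 (exact permutation p = 0.0333, adjusted 0.360). Without wild type libraries 2 and 3 their r was 0.91. Myh11 and Des had r of 0.85 (exact permutation p = 0.0472, adjusted 0.331) and rho of 0.60 (exact permutation p = 0.242, adjusted 0.640). Their r was -0.085 without wild type library 3 and Bud31-vKO library 3, so it rests on those libraries. Of the 28 pairs 20 had r above 0, and only Acta2 with Myl9 passed the adjusted threshold for r. The points share depth and scaling, and with 3 libraries a genotype no r was taken within each.

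**Figure D4:**
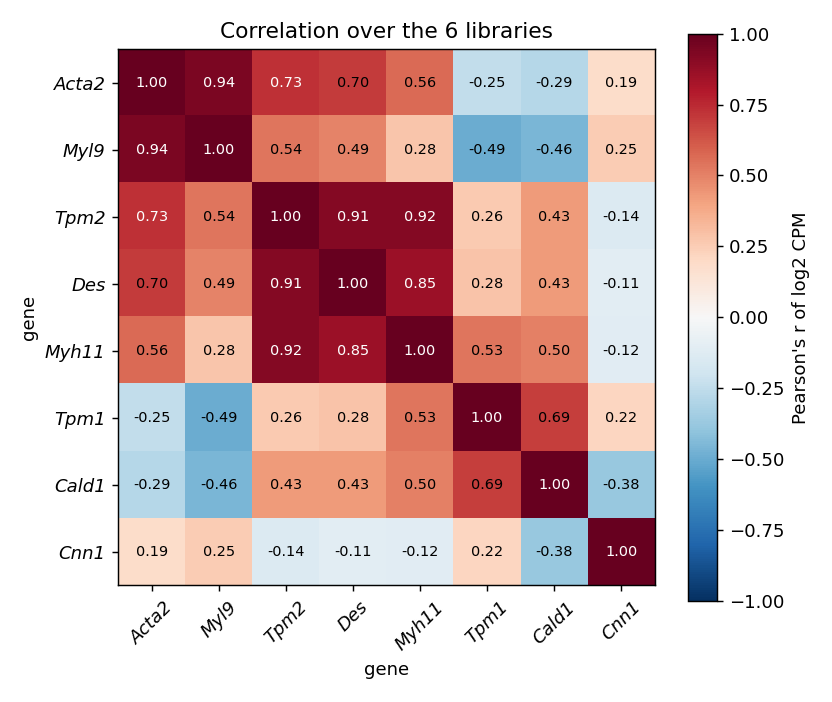
Pearson's r of log2 CPM over the 6 libraries for each pair of the 8 tested contractile genes. Acta2 with Myl9 reaches 0.94, the pairs among Tpm2, Des and Myh11 lie between 0.85 and 0.92, the lowest resting on 2 libraries, and Acta2 with Cald1 is at -0.29.

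Likeness to the members was measured as Pearson's r with the mean log2 CPM of the 8 tested members over the 6 libraries, among genes whose own mean was 4 or more. The nearest genes were Zfp346 (0.99), Zmynd19 (0.99), Smc5 (0.97), Mphosph10 (0.96), Slc16a1 (0.96), Eif3l (0.95), Polr2c (0.95) and Ctdsp1 (0.95). Values picked as the highest of many genes over 6 libraries can be this high by chance, and they were not tested. Among the members the value ran from 0.89 for Myh11 and 0.89 for Tpm2 to 0.28 for Cald1. Each member is itself part of that mean, which raises its value, so these are descriptions only. With the filter of 5 CPM, which Cnn1 did not pass, the value was 0.82 for Mphosph10 and 0.85 for Polr2c. In the 4 libraries richest in detected genes it was 0.79 for Ctdsp1. The members tested are not the same with that filter, and may differ in the 4 libraries, so the mean itself changed. The members' mean itself had an r of 0.66 with the number of genes detected, over the same 6 libraries, given as a description.

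Transcription regulators of smooth muscle, a list of 15 around SRF, had no common direction, with 7 above and 8 below 0 and a median log2 fold change of -0.21, which ranged from -0.31 to 0.23 with single libraries left out. By edgeR 0 were called, and 1, Fhl2, had an unadjusted p under 0.05, against 0% and 2.91% of all genes tested. Of all genes tested 48.9% were below 0, and these shares apply to the lists that follow as well. Fhl2 encodes a LIM protein that binds SRF. It measured 27.8, 30.2 and 17.1 CPM in libraries 1, 2 and 3 of wild type mice and 88.8, 59.4 and 87.9 CPM in those of Bud31-vKO mice, without overlap. Its log2 fold change was 1.65 with an SE of 0.52, an unadjusted p of 0.0134 and an adjusted p of 0.9997 by edgeR. Srf itself measured 95.7, 80.1 and 44.5 CPM in wild type against 134, 113 and 122 CPM in Bud31-vKO, in library order, also without overlap. Its log2 fold change of 0.74 had an SE of 0.40 and an unadjusted p of 0.103. Here and in the lists that follow, the 2 tested genes with the smallest unadjusted p are among those named. A lack of overlap partly follows from that choice. Of all genes tested, 4.76% were separated higher and 6.39% lower in Bud31-vKO. The cofactor Myocd did not exceed 2.44 CPM, while its relatives Mrtfa and Mrtfb lay between 4.21 and 68.8 and between 33.5 and 58.4 CPM.

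Genes of the smooth muscle cytoskeleton and dense bodies were below 0 in 13 of 19 tested of 20, with a median of -0.16, 0 called by edgeR and 2 at an unadjusted p under 0.05. Of all genes tested 48.9% were below 0 and 2.91% had such a p. Dstn, which encodes the actin-severing protein destrin, measured 536, 549.7 and 594 CPM in libraries 1, 2 and 3 of wild type mice and 308, 290.5 and 314 CPM in those of Bud31-vKO mice. The groups lay clear of each other, with a log2 fold change of -0.88, an SE of 0.24, an unadjusted p of 0.00718 and an adjusted p of 0.9997 by edgeR. Over 16 alternatives its adjusted p was between 0.121 and 1. Synpo2, which encodes an actin-binding protein of muscle, measured 2.26, 6.13 and 21.4 CPM in wild type against 0, 0 and 0.222 CPM in Bud31-vKO, in library order, the last being 3 reads.

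Signalling and calcium genes of contraction had 12 above and 8 below 0 of 20 tested of 21, with a median of 0.15, and by edgeR 0 called and 0 at an unadjusted p under 0.05. Mylk, the kinase of the myosin light chain, measured 108, 207 and 124 CPM in libraries 1, 2 and 3 of wild type mice and 95.2, 82.6 and 192 CPM in those of Bud31-vKO mice, with overlap. Rhoa, a small GTPase that promotes contraction, measured 310.1, 251 and 284 CPM against 240.1, 192 and 186 CPM, and Stim1, a sensor of calcium stores, 45.8, 42.9 and 86.99 CPM against 102, 93.5 and 91.98 CPM. Neither overlapped, with log2 fold changes of -0.45 (unadjusted p of 0.140) and 0.71 (unadjusted p of 0.144) by edgeR over all genes. Rhoa and Stim1 were picked for the smallest unadjusted p of this list, which favours groups that do not overlap.

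Ligands and receptors that act on contractile cells had 11 above and 7 below 0 of 18 tested of 26, with a median of 0.39, 0 called by edgeR and 1 at an unadjusted p under 0.05. Of all genes tested 48.9% were below 0 and 2.91% had such a p. Pdgfb, a ligand that recruits mural cells, measured 38.4, 62.1 and 38.1 CPM in libraries 1, 2 and 3 of wild type mice and 69.2, 109 and 141 CPM in those of Bud31-vKO mice. The groups did not overlap, with a log2 fold change of 1.21, an SE of 0.46, an unadjusted p of 0.0315 and an adjusted p of 0.9997 by edgeR. Tgfb3, a TGF-beta ligand, measured 33.5, 38.5 and 37.3 CPM against 18.8, 6.07 and 10.8 CPM, with a log2 fold change of -1.62 and an unadjusted p of 0.0865. The endothelin receptor gene Ednra was read at 83.9 to 355 CPM, and the oxytocin receptor gene Oxtr at no more than 0.166 CPM.

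Relatives of the members in cells that are not muscle, 14 genes led by Actb with 1511 per length, had 7 above and 7 below 0, with a median of 0.016 and 0 called (0 at an unadjusted p under 0.05) by edgeR. Cnn2 measured 125, 124 and 139 CPM in wild type against 93.2, 55.6 and 105 CPM in Bud31-vKO, in library order, and Myh14, a myosin heavy chain gene, 13.6, 13.4 and 0 CPM against 19.8, 103 and 36.5 CPM. Neither overlapped, with log2 fold changes of -0.61 and 2.56 and unadjusted p of 0.143 and 0.167. Of 24 striated muscle genes 13 passed the filter, 5 above and 8 below 0, with a median of -0.27 and 0 called (0 at an unadjusted p under 0.05) by edgeR. Myh3, the embryonic heavy chain, measured 26.5, 22.6 and 20.2 CPM against 0.146, 0 and 8.13 CPM, and Myh7, the slow heavy chain, 1.24, 20.3 and 0 CPM against 0.804, 0.0714 and 0.148 CPM.

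Markers of other cell types are given beside the contractile values, and their part in these values was not tested. Of all genes tested 48.9% were below 0. In the mural list 2 of 8 tested were above 0, with Notch3 at -1.69 and Cspg4 at 1.57 on the log2 scale, and over the alternatives these ranged from -3.38 to -0.58 for Notch3 and from 0.12 to 3.89 for Cspg4. In the stromal list 3 of 9 were above 0, with Pdgfra at 0.93 and Lum at -0.91, and the list's median of -0.25 turned to 0.25 without wild type library 3 and 0.23 in the 4 libraries richest in detected genes. All 9 Sertoli cell genes tested were above 0, with Inhbb at 3.56 and Clu at 1.95. Their sum over 11 genes was 2348 CPM in Bud31-vKO library 1, the library lowest for Acta2 and Myl9 and highest for Tpm1, and 387 to 807 CPM in the other 5. Without that library the list's median turned from 1.399 to -0.37, the value of Clu. Endothelial genes, 6 of 7 above 0 with Eng at 1.45 and Cldn5 at 2.52, summed to 40.6 to 223 CPM in wild type and 135 to 445 CPM in Bud31-vKO. In Bud31-vKO library 2 Eng alone gave 119 CPM, and 7 of the 10 genes were at 0, Pecam1, Kdr and Cldn5 among them. The sum was highest in Bud31-vKO library 3, the library highest for Myh11, Tpm2 and Cald1. Leydig genes summed to 19.7 to 27.6 and 30.1 to 67.6 CPM, with 3 of 3 above 0, Nr5a1 at 1.24 and Cyp11a1 at 0.90. Their median turned from 0.90 to -3.54 without Bud31-vKO library 3. Nr5a1 was the whole sum of wild type library 3, where 6 of the 7 genes were at 0. It gave 48.7 of 67.6 CPM for Bud31-vKO library 1, 25.5 of 30.1 CPM for library 2 and 18.9 of 39.4 CPM for library 3. For wild type libraries 1 and 2 it gave 9.55 of 25.2 CPM and 10.1 of 27.6 CPM. By itself Nr5a1 overlapped between the groups. Macrophage genes summed to 12.1 to 195 and 13.3 to 127 CPM, with 3 of 5 above 0, C1qa at -2.10 and Cd68 at 0.55. Lymphocyte genes summed to 14.5 to 97.8 and 85.9 to 518 CPM, with 7 of 8 above 0, Gzma at 4.26 and Klrd1 at 3.40. All 13 germ cell genes tested were below 0, with Mael at -1.66 and Dmrt1 at -1.40. The sort genes Thy1 and Kit were at 0.30 and -1.26. No gene named in this paragraph was called by edgeR over all genes, and DESeq2 called Mael (adjusted p = 0.0453).

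**Figure D5:**
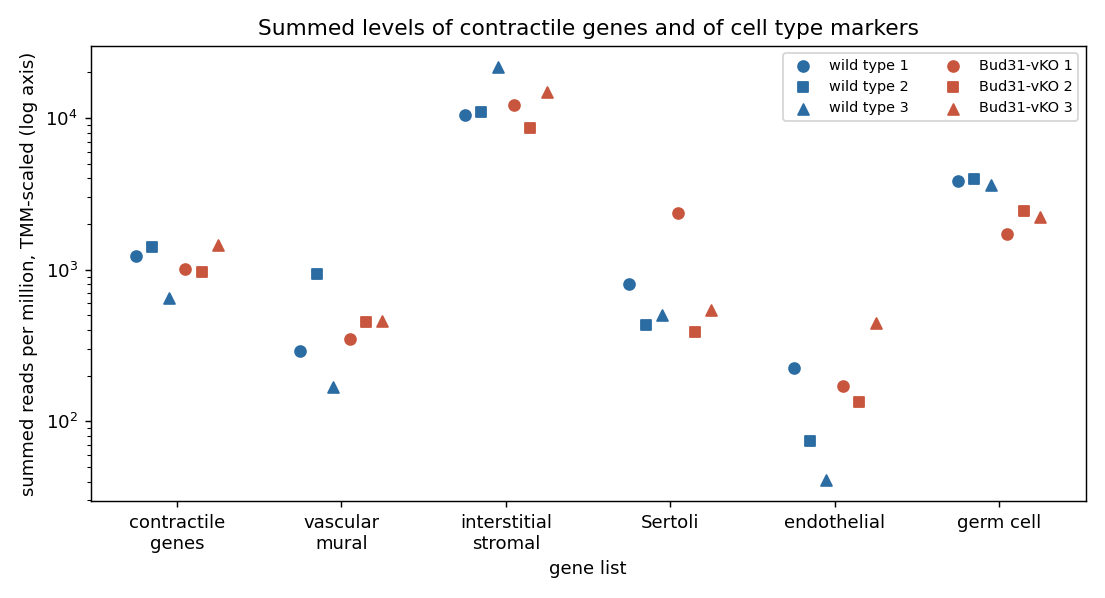
Summed level of the contractile genes and of lists of cell type markers in each library, in TMM-scaled CPM on a log axis. Points are libraries. Stromal sums lie between 8593 and 21844, and germ cell sums do not overlap and are lower in Bud31-vKO. The contractile sums overlap, at 650.2 to 1418 in wild type and 963 to 1445 in Bud31-vKO.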

How the data were processed

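RNA was measured in 3 wild type and 3 Bud31-vKO libraries. The authors deposited unscaled counts of reads for each Ensembl gene, whole numbers with unequal totals of 13240704 to 18744466. The genome build was mm10 and bcl2fastq was used, per the submitters' processing notes. Aligner, counting tool, annotation and use of strand: not given in the sources used here. Symbols (51719 of 51912 identifiers, 99.6%), exon lengths and overlaps came from GENCODE M21 on GRCm38, and promoters from RefSeq.

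Genes were kept with filterByExpr (minimum count 10, minimum total count 15), scaled by TMM and compared without covariates by the quasi-likelihood F test of edgeR 4.0.16 in R 4.3.3, with Benjamini-Hochberg adjustment over all 15240 genes tested and a threshold of 0.05. The SE of a log2 fold change was its absolute value divided by the square root of F. Log2 CPM used a prior count of 2. The steps were tested on simulated data. The members and lists were chosen with earlier results of these data known. Genes named are the members, Bud31, Thy1, Kit, the 2 tested genes of each list with the smallest unadjusted p, and the 8 genes most like the members. Others, such as Mylk, Rgs5 and Ednra, were named after their values were seen. Alternatives were 3 other scalings, no filter, DESeq2 1.42.0, a minimum of 5 CPM in 3 libraries, robust dispersion, limma-voom (limma 3.58.1), a block for the library number, each library left out, and the 4 libraries richest in detected genes alone. Figures were drawn with matplotlib 3.10.9 in Python 3.11.15.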

Additional observations from a re-analysis of the deposited data

How the results depend on the processing

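By edgeR 0 genes were called over all genes, against 7 with no filter on low counts and 47 with DESeq2. Over the 16 alternatives 0 contractile genes were called, and 6 of their 127 recomputed fold changes turned sign. The log2 ratio of the summed level lay between -0.19 and 0.27. In the 4 libraries richest in detected genes, 3 members lay above 0 and 4 did not overlap, with Des at -0.11 and Tpm2 at -0.00543 on the log2 scale. With each library left out in turn, members above 0 numbered 3 to 6 and members without overlap 1 to 3, where 16.6% to 24.9% of all genes tested did not overlap. The log2 fold change then ranged from -1.11 to 2.52 for Myh11, -0.12 to 0.76 for Des, -0.037 to 0.67 for Tpm2, -0.48 to 0.66 for Thy1, -0.37 to 3.18 for Clu, -10.996 to 2.06 for C1qa and -7.27 to 1.49 for Cyp11a1. Cyp11a1 was -1.17 with limma-voom and -5.03 with the replicate block. Whether the library numbers pair the samples is not known. Deviations of same-numbered libraries had r of 0.19, 0.041 and -0.076, and 3 of 6 libraries correlated best with their own number. With so few libraries these values cannot settle it. With the replicate block 0 genes were called and the median of the members was 0.38. DESeq2 called Mael, as given above. The causes of these changes were not tested. Cnn1 gave no value under the filter of 5 CPM. Tagln and Actg2, with few reads, were not tested in the main fit. They entered the fit without a filter, and could enter where the filter was run again on fewer libraries. The counts of members above 0 and the members' medians include them where they did.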
